A study of Mus musculus with 2 samples.

Results

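The genes examined here encode 10 adhesion molecules of the erythroblastic island: Vcam1, Itga4, Itgb1, Itgav, Itgb5, Icam4, Maea, Palld, Cd44 and Siglec1. They were followed through every probe set whose platform annotation names that gene alone, which gave 37 of the 45101 probe sets on the array, from 1 probe set for Icam4 to 6 for Itgb1. The study hybridised total RNA of sorted fetal liver macrophages to Affymetrix GeneChip arrays, 1 array for wild-type (c-Maf+/+) and 1 for c-Maf KO (c-Maf-/-) embryos of the C57BL/6J strain at E15.5 (days of embryonic development). Cells positive for both Mac-1 and F4/80 were collected by flow sorting. The stated aim was to find genes that are lower in macrophages without c-Maf, a basic leucine zipper transcription factor. The knockout is carried by the embryo, so erythroblasts and all other fetal liver cells lack c-Maf as well, and the number of embryos combined per array is not stated in the labels. With 1 array per genotype there is no replicate, and therefore no test, p-value or error between animals: each statement below describes these 2 arrays.

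An erythroblastic island is a central macrophage with maturing erythroblasts attached around it, and in the fetus most islands form in the liver. The macrophage displays VCAM1, which is bound by the erythroblast integrin α4β1 (Itga4 with Itgb1), and αV integrins (Itgav, among others with Itgb5), which are bound by the erythroblast molecule ICAM4. MAEA, also named erythroblast macrophage protein, is found on both partners, CD44 is a receptor for hyaluronan on many blood cells, palladin (Palld) organises actin in the macrophage, and SIGLEC1 (CD169, sialoadhesin) is a macrophage lectin that binds sialic acid on neighbouring cells.

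The deposited values are linear signals per probe set. The knockout array was dimmer, with a median of 2.98 against 4.73 over all probe sets, and the median log2 ratio of knockout over wild type was -0.93 over the 9238 genes that both arrays placed above the floor described next. Ratios are therefore given after quantile normalization, which gives both arrays the same distribution of signals. This level-adjusted ratio is the one meant by lower and higher unless the deposited signal is named. Values under a floor (3.70 in deposited and 3.75 in level-adjusted signal) were raised to it, and where a probe set lay under it on 1 array the ratio is a bound, given with the words at least. For scale, the log2 ratios of probe sets of the same gene differed with an SD of 0.65 per probe set (3780 pairs in 1839 genes, signal of at least 14.8 on the brighter array). That spread is within the same 2 arrays and holds no variation between animals or sorts.

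Several features of the arrays touch every result below. The brightest Maf probe set read 47.6 for wild type against 0.219 for knockout, at least 8.51-fold lower, and it is not known whether its probes fall inside the deletion. The ratio of 3' to 5' control signal of Actb was 13.3 for wild type against 6.05 for knockout, so probe sets at different distances from the 3' end of a transcript can differ between the arrays. Of the sort markers, Adgre1, which encodes F4/80, had signals of 71.4 and 48.1, and Itgam, the Mac-1 alpha chain, 5.76 and 3.94, close to the floor. All 8 measured of 9 hepatoblast markers were at least 2-fold higher in knockout (median log2 ratio 1.90), beside 8.34% of all genes. In deposited signal 3 of them were, beside 1.19% of all genes. Their part in the results was not tested.

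In brief, Vcam1, Itgav and Itgb5 were lower on the knockout array by their brightest probe sets, and Itgb1 and Siglec1 were higher. Itga4, Icam4, Maea, Palld and Cd44 lay within 2-fold. The value of Itgav rests on 1 of its 3 measured probe sets, whose mean log2 ratio was 0.062. Each gene is represented here by the brightest of its probe sets (mean of both deposited signals), and on that measure all 10 genes were above the floor on both arrays. At least 2-fold lower were 3 of the 10, beside 9.05% of all 13290 measured genes. At least 2-fold higher were 2 of the 10, beside 8.34% of all genes, and 5 lay within 2-fold. Lower calls were more frequent among bright genes, those with a signal of at least 14.8 on the brighter array. Of the 10 genes 7 were bright, 3 of them lower and 1 higher, beside 14.2% and 5.25% of all bright genes. In deposited signal 9 of the 10 were dimmer in knockout, 6 of them at least 2-fold, beside 39.8% of all genes. None was at least 2-fold brighter, beside 1.19% of all genes. The median over the 10 genes was -0.25 level-adjusted and -1.26 as deposited, where all measured genes had medians of 0.0087 and -0.79. With 10 genes, these shares describe the list and set nothing apart as particular to it.

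**Figure D1:**
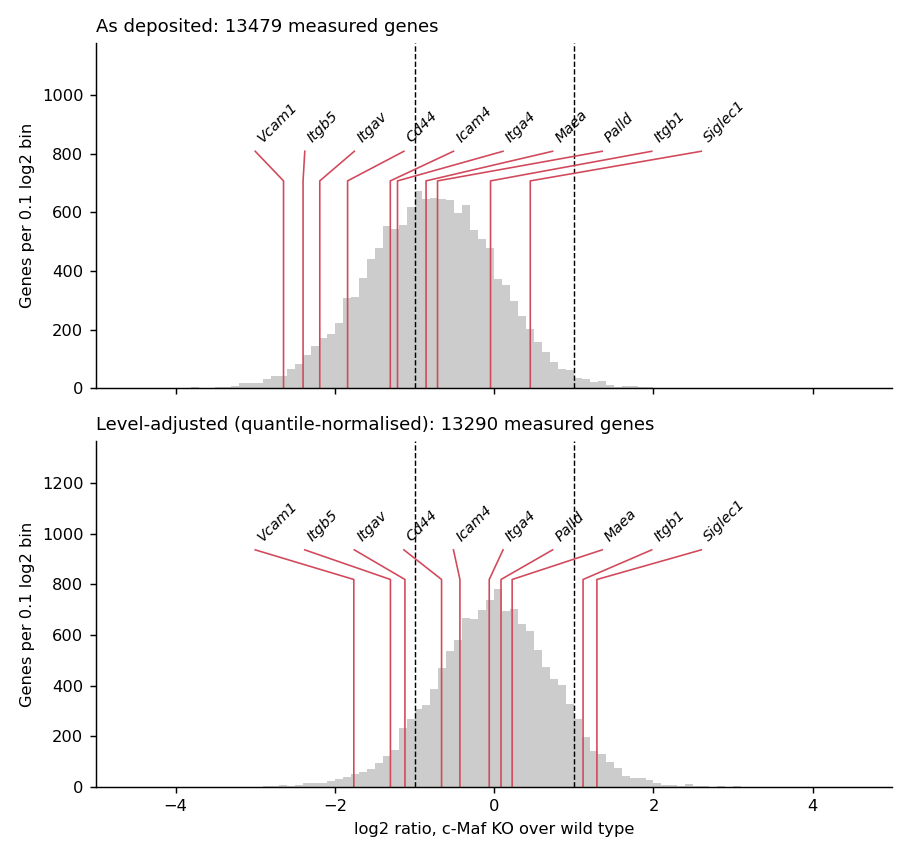
Histograms of the log2 ratio of knockout over wild type for all measured genes, in deposited signal (top, 13479 genes) and after level adjustment (bottom, 13290 genes), with red lines at the 10 adhesion genes and dashed lines at 2-fold. Vcam1, Itgb5 and Itgav lie at the low end in both panels, while Itgb1 and Siglec1 lie beyond 2-fold higher only in the bottom panel.

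Vcam1 had the lowest ratio of the 10 genes. Its brightest probe set, 1448162_at, read 24.4 for wild type against 3.90 for knockout, just above the floor. This is 3.39-fold lower level-adjusted (log2 ratio -1.76) and 6.25-fold lower as deposited. Of all measured genes, 1.34% had a lower ratio, and among genes of the same signal bin (1 of 5 equal bins) 1.59% did. A second probe set, 1415989_at, went from 8.28 to 1.60 and was thus under the floor in knockout, at least 1.69-fold lower and short of the 2-fold threshold. The third, 1451314_a_at, was under the floor on both arrays (0.337 and 1.69). Both measured probe sets thus ran in the same direction, and the third gives no ratio.

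Endothelial and stromal cells also produce VCAM1. Of their markers, 2 endothelial ones, Stab2 (20.3 and 10.9) and Eng, were bright, and 0 stromal ones were. The 10 endothelial markers summed to 92.3 for wild type against 67.5 for knockout, the 9 stromal markers to 47.9 and 41.6. Pecam1, Pdgfra and Lum were under the floor on both arrays, and Tie1 (4.06 and 0.229) was so after level adjustment only. None of the measured markers of either type was at least 2-fold lower on either scale. Of all genes, bright and dim together, 9.05% were lower level-adjusted and 39.8% as deposited. The highest endothelial ratio was that of Eng (15.8 and 16.9, log2 ratio 1.14). On such bulk arrays, fewer cells that carry a transcript and less of it per cell cannot be told apart.

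The αV chain and the β5 chain were lower on their brightest probe sets. Itgav, probe set 1452784_at, read 42.0 for wild type against 9.21 for knockout, 2.17-fold lower (log2 ratio -1.12). Itgb5, probe set 1456133_x_at, had 55.7 and 10.6, 2.47-fold lower (-1.30). The chains of this pair differed by only 0.18 on the log2 scale, less than the median difference of 0.60 between bright probe sets of the same gene. Of all measured genes, 6.64% had a ratio below that of Itgav and 4.18% below that of Itgb5.

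Other probe sets of both genes did not all follow. For Itgb5, 1456195_x_at went from 11.3 to 4.09 (log2 ratio -0.68) and 1417534_at from 9.54 to 2.20, at least 1.92-fold lower. The dimmest, 1417533_a_at, went the other way, from 3.61 to 5.77, at least 2.05-fold higher. Thus 3 of the 4 Itgb5 probe sets were lower in knockout, 1 of them past 2-fold. The _x_ in a probe set name marks probes that may also bind other transcripts, and both _x_ probe sets were on the lower side, as was the unsuffixed 1417534_at. For Itgav, 1432678_at had 5.59 and 4.13 (0.28), and 1421198_at had 1.02 and 5.76, at least 2.04-fold higher. A further 2 Itgav probe sets, 1432296_a_at and 1432679_at, were under the floor on both arrays. The lower ratio of Itgav therefore rests on 1 bright probe set of 3 measured, and the mean over the 3 was 0.062.

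Icam4, the erythroblast ligand of αV integrins, has 1 probe set, 1422930_at, which read 14.1 for wild type against 5.71 for knockout. That is 2.47-fold lower as deposited and 1.35-fold lower level-adjusted (-0.43), within 2-fold. It lay 0.69 above Itgav on the log2 scale. Pairs of bright probe sets of the same gene differed by a median of 0.60, and the Icam4 probe set was not bright.

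Both chains of the erythroblast integrin α4β1 were present, and their ratios differed. Itga4 was measured by a pair of bright probe sets with like values: 1436037_at had 49.97 and 21.5 (log2 ratio -0.06), and 1456498_at had 34.3 and 13.4 (-0.26). In deposited signal they were 2.32-fold and 2.56-fold lower (log2 ratios -1.21 and -1.36), beside a median of -1.23 among genes of the same signal bin. The Itga4 transcript thus lay near the middle of all genes, with 46.1% of them lower. The dim probe sets were split, with 1421194_at at 5.76 and 2.35 (at least 1.21-fold lower) and 1450155_at at 0.661 and 4.80 (at least 1.67-fold higher), and 1427615_at was under the floor on both.

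Itgb1, which encodes the β1 chain shared by many integrins, was nearly equal in deposited signal, 96.3 for wild type against 93.3 for knockout on probe set 1452545_a_at. After level adjustment it was 2.17-fold higher (log2 ratio 1.12), and 93.9% of all measured genes had a lower ratio. The direction thus depends on the scaling, with a log2 ratio of -0.046 in deposited signal. A dim probe set, 1426918_at, was higher on either scale, with 3.82 and 12.2 (at least 4.71-fold higher level-adjusted, 3.20-fold as deposited), and 1427771_x_at had 2.12 and 4.64 (at least 1.61-fold higher). The remaining 3 were under the floor on both arrays. Itga4 lay 1.18 below Itgb1 on the log2 scale. By comparison, 26.8% of pairs of bright probe sets of the same gene differed by 1 or more.

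**Figure D2:**
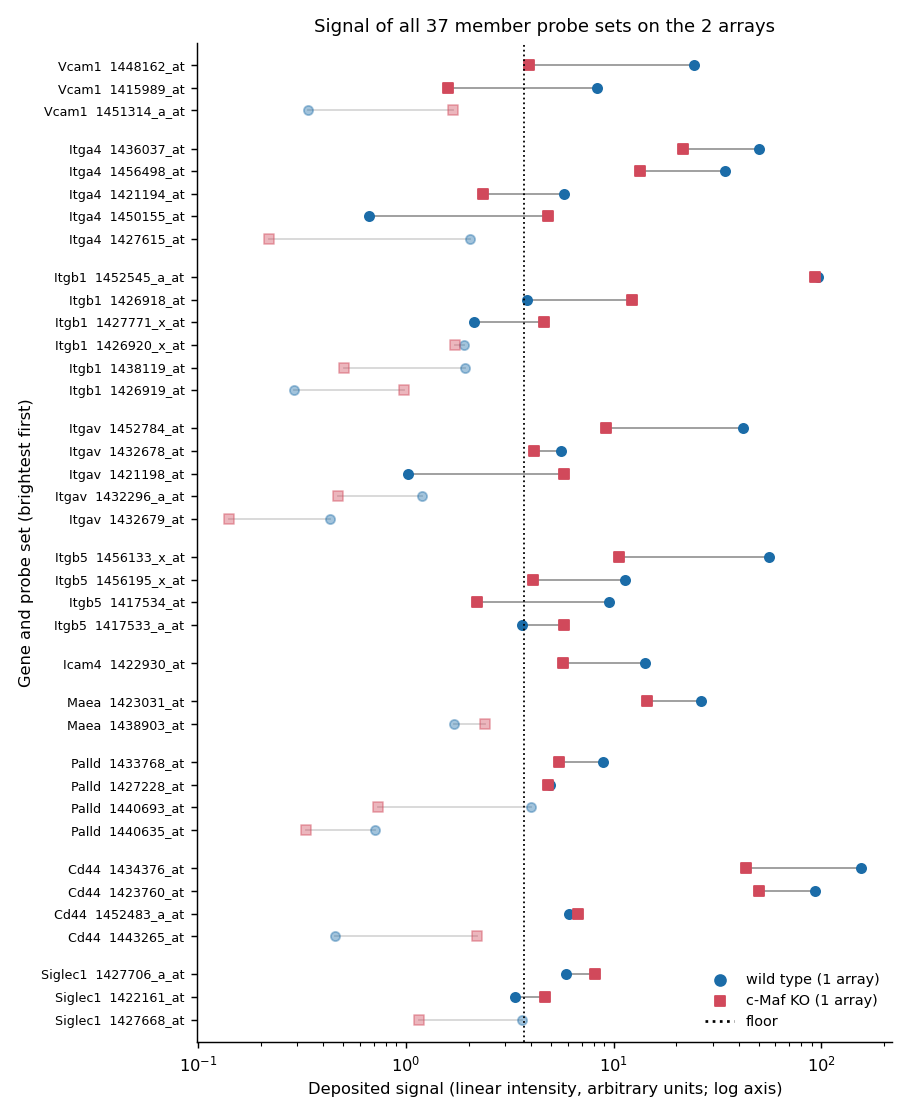
Deposited signal (log axis) of each of the 37 probe sets on the wild-type array (blue circles) and the knockout array (red squares), grouped by gene with the brightest probe set first. The dotted line is the floor of 3.70, and pale pairs are the 12 probe sets under the level-adjusted floor on both arrays. The brightest Vcam1, Itgav and Itgb5 probe sets show the widest gaps among those above the floor on both arrays.

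Maea and Palld showed little difference beyond the overall shift. Maea, probe set 1423031_at, read 26.2 for wild type against 14.5 for knockout (log2 ratio 0.23), and its other probe set, 1438903_at, was under the floor (1.70 and 2.41). Palld, probe set 1433768_at, had 8.90 and 5.44 (0.09), and 1427228_at had 4.95 and 4.84 (0.69). The other 2 Palld probe sets, 1440693_at and 1440635_at, were under the level-adjusted floor on both arrays. All 3 measured probe sets of these genes were thus dimmer in knockout by less than 2-fold in deposited signal, and none reached 2-fold after level adjustment. No Palld signal reached 4 times the floor.

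Cd44 had a pair of bright probe sets that did not give the same ratio. Probe set 1434376_at read 155 against 43.3 (log2 ratio -0.66), whereas 1423760_at had 92.9 and 49.96 (0.27). The dimmer 1452483_a_at had 6.07 and 6.74 (0.94), and 1443265_at was under the floor on both arrays. The ratios of the 3 measured probe sets spanned 1.60 on the log2 scale, and none was 2-fold lower or higher.

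Siglec1 was dim. Its probe set 1427706_a_at read 5.91 for wild type against 8.10 for knockout, 1.37-fold higher as deposited and 2.44-fold higher level-adjusted (log2 ratio 1.29). Of the 10 genes it was the only one with a higher deposited signal in knockout on its brightest probe set. Probe set 1422161_at had 3.36 and 4.69 (at least 1.63-fold higher). The third, 1427668_at, was under the floor on both arrays after level adjustment, with 3.63 and 1.15. Of 11 other macrophage markers measured, 5 were at least 2-fold higher (Cd68, Fcgr1, C1qa, C1qc and Aif1) and 0 lower, beside 8.34% and 9.05% of all genes. The 6 within 2-fold were Mrc1 (-0.87), Mertk (-0.76), Csf1r (-0.24), Timd4 (0.06), Adgre1 (0.60) and C1qb (0.88). The median log2 ratio of the 11 was 0.88. In deposited signal that median was -0.29, with 0 at least 2-fold higher and 3 lower, beside 1.19% and 39.8% of all genes.

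Over probe sets, 25 of the 37 were above the floor on at least 1 array, 16 of them on both. At least 2-fold lower were 3 of the 25 (9.01% of all measured probe sets), at least 2-fold higher were 5 (8.41%), and 17 were within 2-fold. Of the higher ones, Itgb1 1426918_at, Itgav 1421198_at and Itgb5 1417533_a_at passed the level-adjusted floor through the knockout array alone. In deposited signal 10 of 26 were lower (35.1% of all) and 1 higher (1.2%). Brightness and direction went together, as they did over all genes. Genes above the floor on both arrays had a median deposited log2 ratio of -0.54 in the dimmest of the 5 signal bins and -1.33 in the brightest. Among the 9 bright probe sets, with a signal of at least 14.8 on the brighter array, every one was dimmer in knockout in deposited signal. Level-adjusted, 3 of these were lower and 1 higher, beside 15.9% lower and 6.38% higher of all bright probe sets. Among the 16 dimmer ones, 0 were lower and 4 higher, beside 5.08% and 9.57% of all dim probe sets. The calls of Itgav and Itgb5 that went both ways thus paired a bright lower probe set with a dim higher one that was under the floor in wild type. Of 1374 genes with 3 measured probe sets 58.1% spanned more than 1 log2 unit, as did Itgb1, Itgav and Cd44. Of 558 genes with 4 it was 76.0%, as for Itga4 and Itgb5. Calls both ways were rarer, in 3.13% of the genes with 3 (as for Itgav) and 6.09% of those with 4 (as for Itgb5).

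The genes differed in how far their calls depended on the processing. Vcam1 was at least 2-fold lower under all 10 processing choices, with log2 ratios from -2.64 in deposited signal to -1.24 with the floor added as a pseudocount. Itgav and Itgb5 were at least 2-fold lower under 8 of 10 each. These choices are not independent, and several reuse the same value where the same probe set stays in use above the floor. Itgav kept -1.12 with the floor at the 25th or 65th percentile, without suffixed probe sets and with the probe set chosen on normalized signal. Itgav reached -0.93 with the pseudocount and 0.062 as a mean over its probe sets. Itgb5 was at -0.94 without suffixed probe sets and -0.47 as that mean. Itgb1 was at least 2-fold higher under 7 of 10 and Siglec1 under 5 of 10. Cd44 was at least 2-fold lower under 2 of 10 (as deposited and with equal medians), and Itga4 and Icam4 under 1 each (as deposited). Maea and Palld stayed within 2-fold under all 10.

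**Figure D3:**
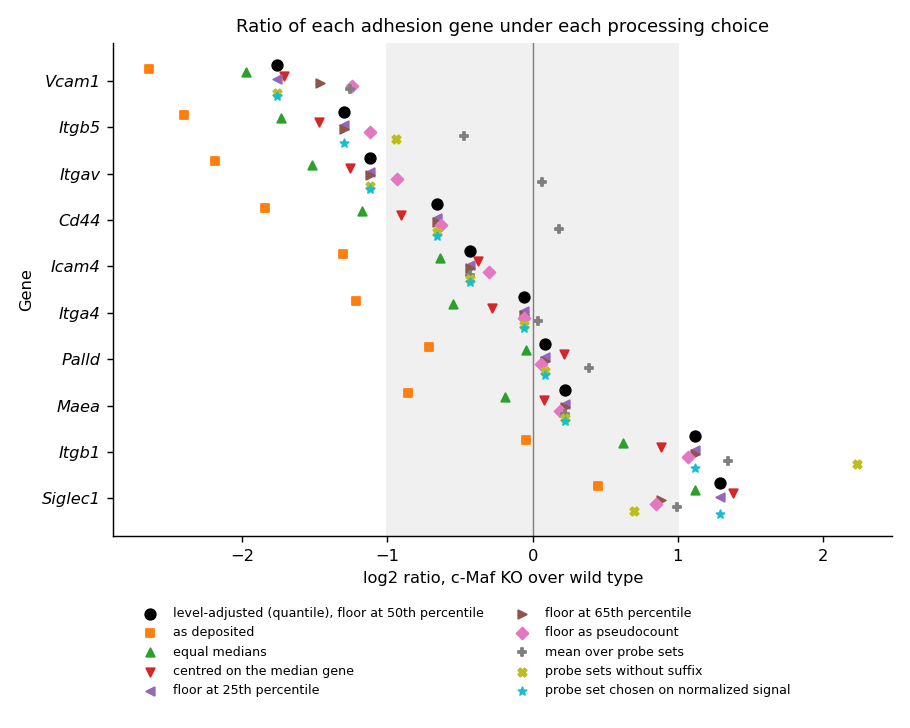
Log2 ratio of knockout over wild type for each adhesion gene (rows) under the 10 processing choices (symbols), with the range within 2-fold shaded. Vcam1 lies to the left of the shaded band under every choice, and the mean over probe sets (grey crosses) moves Itgav to 0.062 and Cd44 to 0.18.

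The promoter sequences of the members are shown for the α4β1 chains, whose ratios differed, for Icam4, the other erythroblast molecule, and for Itgb5, which was lower with a single annotated start. Each is the 250 bases before the gene's start, 5′ to 3′ on the gene's strand, from RefSeq on GRCm38.p6. Capitals mark matches, on either strand, to AGATAA (a site of GATA factors), to CACCC (a core bound by Krüppel-like factors) and to the longer CCACACCC, which contains CACCC.
Itga4, chr2:79255176-79255425, plus strand: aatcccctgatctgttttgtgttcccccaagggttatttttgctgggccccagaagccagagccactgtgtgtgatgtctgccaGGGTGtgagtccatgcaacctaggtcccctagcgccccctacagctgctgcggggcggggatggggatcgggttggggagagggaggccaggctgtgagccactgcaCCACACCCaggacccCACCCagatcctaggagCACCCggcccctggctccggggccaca
Itgb1, chr8:128685404-128685653, plus strand: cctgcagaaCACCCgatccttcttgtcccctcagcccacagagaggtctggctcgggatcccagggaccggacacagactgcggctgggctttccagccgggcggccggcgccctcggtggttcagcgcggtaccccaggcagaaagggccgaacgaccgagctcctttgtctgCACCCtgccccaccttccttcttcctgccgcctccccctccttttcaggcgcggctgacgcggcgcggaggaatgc
Icam4, chr9:21029182-21029431, plus strand: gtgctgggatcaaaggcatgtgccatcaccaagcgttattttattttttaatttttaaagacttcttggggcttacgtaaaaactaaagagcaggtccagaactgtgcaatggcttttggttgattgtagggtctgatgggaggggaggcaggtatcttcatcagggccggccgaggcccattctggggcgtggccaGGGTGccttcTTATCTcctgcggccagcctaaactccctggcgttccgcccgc
Itgb5, chr16:33829415-33829664, plus strand: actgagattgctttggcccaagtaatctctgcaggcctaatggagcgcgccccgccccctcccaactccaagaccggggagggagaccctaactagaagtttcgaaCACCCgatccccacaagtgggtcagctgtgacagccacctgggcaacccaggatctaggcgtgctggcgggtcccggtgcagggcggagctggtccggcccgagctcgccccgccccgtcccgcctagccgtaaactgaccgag

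Letters of the Maf recognition element (MARE), which Maf factors bind, were searched in all 9 windows that the table holds for 7 of the genes (Itga4, Itgb1, Itgav, Itgb5, Icam4, Cd44 and 3 starts of Palld). The full palindromic Maf recognition element (MARE), the 7-base TGCTGAC and the 6-base core TGCTGA, which both of the others contain, were in none of these windows on either strand. Of all 32851 windows, TGCTGAC was in 3.81% and TGCTGA in 16.1%, and the 15-base pattern was in 1 window. Its gap of 3 bases between the arms is wider than in the MARE, whose full form was not counted over all windows. The search says only that these letters are not in these 250 bases. The GATA site AGATAA was in Icam4, 43 bases before the start on the opposite strand, and in Cd44 (9.99% of all windows). CACCC was in 6 of the 7 genes, all but Cd44, and in 52.0% of all windows, and CCACACCC was in Itga4 alone of the 7 and in 3.20% of all windows. These matches are a description of the letters and show no binding.

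Other integrin subunits lay within 2-fold by their brightest probe sets after level adjustment. Of 19 listed, 16 were measured, and 0 were at least 2-fold lower or higher (median log2 ratio -0.01), beside 9.05% and 8.34% of all genes. In deposited signal 7 of 17 were at least 2-fold lower and 0 higher (median -0.61), beside 39.8% and 1.19% of all genes. A dimmer probe set of Itga6 was under the floor in knockout, which bounds its log2 ratio at -1.999 or lower, against -0.21 for its brightest. The leukocyte integrin chains Itgal (29.4 and 8.55, -0.74) and Itgb2 (56.2 and 15.9, -0.68) had the lowest ratios of the bright ones, and Itga2b of platelets (22.9 and 20.7, 0.95) the highest, although Itga2b was at -0.15 as deposited. Itga1 was at 0.41, and at -0.61 as deposited.

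Among ligands of integrins and CD44, 4 of 13 measured genes were at least 2-fold higher and 0 lower, beside 8.34% and 9.05% of all genes. Of these 4, Lama5, Lamc1 and Nid1 were under the floor in wild type, so their ratios are bounds. In all, 7 of the 13 were above the floor on 1 array only. Lama5, a laminin chain, read 2.28, under the floor, against 27.6, at least 10.99-fold higher, although another of its probe sets had a log2 ratio of -0.57. Mfge8, a secreted bridge between αV integrins and apoptotic cells, went from 8.84 to 17.5 (1.95). Fibronectin, Fn1, a ligand of α4β1 as VCAM1 is, went from 20.6 to 5.49 (-0.99), just within 2-fold, and Thbs1 was at 0.75, but at -0.33 as deposited. In deposited signal 3 of these 13 genes were at least 2-fold lower and 3 higher, beside 39.8% and 1.19% of all genes.

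Genes that link integrins or CD44 to actin had a median log2 ratio of 0.54 (-0.60 as deposited). Of 26 measured, 5 were at least 2-fold higher and 1 lower, beside 8.34% and 9.05% of all genes. Fermt2, among the higher ones, was under the floor in wild type, and Src, the lower one, in knockout. Ilk, a kinase-like scaffold at integrin tails, went from 15.6 to 23.9 (1.67), Actn4 from 36.5 to 45.5 (1.45), and Ezr, which couples CD44 to actin, from 53.3 to 60.5 (1.35). Rac2 was at 1.13 but slightly lower in deposited signal (86.8 and 84.2). In deposited signal 8 of the 26 were at least 2-fold lower and 1 higher, beside 39.8% and 1.19% of all genes.

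The partners of MAEA in the CTLH ubiquitin ligase complex were all measured. At least 2-fold lower or higher were 0 of 10, beside 9.05% and 8.34% of all genes, and their median log2 ratio was -0.20. In deposited signal 7 of the 10 were at least 2-fold lower and 0 higher (median -1.28), beside 39.8% lower of all genes. All 10 were bright, however, and the 39.8% includes dim genes. In signal bins 2 to 5 (5 the brightest), genes above the floor on both arrays had deposited medians of -0.84, -1.01, -1.23 and -1.33. Gid4 (-0.73), Armc8 (-0.66) and Gid8 (-0.63) had the lowest ratios of the bright ones, and Wdr26 was at 0.43. The direction of Armc8 turned without suffixed probe sets (0.53), that of Gid8 with the mean over probe sets (0.018) or the probe set chosen on normalized signal (0.22), and that of Wdr26 as deposited (-0.74), with equal medians (-0.073) and with that mean (-0.15). Maea itself, at 0.23, lay within their range.

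Among the relatives of ICAM4 and VCAM1 in the immunoglobulin family, 1 of 10 measured genes was at least 2-fold higher and 0 lower. Of all genes, 8.34% were higher and 9.05% lower. That gene, Icam2, an adhesion molecule of endothelium and leukocytes, read 0.772, under the floor, against 13.9, at least 5.38-fold higher, and was singled out after its value was seen. Cd47, a signal against phagocytosis, was at 0.82 (-0.35 as deposited) and Alcam at -0.51. In deposited signal 3 of 9 measured relatives were at least 2-fold lower and 1 higher, beside 39.8% and 1.19% of all genes. Of the sialic acid lectins related to Siglec1, 5 of 7 were measured, and their median log2 ratio was -0.38 (-1.18 as deposited). In deposited signal 3 of 5 measured lectins were at least 2-fold lower and 0 higher, beside the same 39.8% and 1.19%. Siglecg went from 16.4 to 3.67 (log2 ratio -1.32, 2.50-fold lower), Cd33 from 22.6 to 7.40 (-0.62) and Siglecf from 10.7 to 4.73 (-0.38). Cd22, at 11.3 and 9.35, had a log2 ratio of 0.66 (-0.27 as deposited), and Mag, under the floor in wild type, had a bound of 0.19.

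Other genes of island macrophages lay on both sides. Of 15 measured, 4 were at least 2-fold higher and 2 lower after level adjustment, beside 8.34% and 9.05% of all genes. In deposited signal 2 were higher and 5 lower (median -0.68), beside 1.19% and 39.8% of all genes. Spic, a transcription factor of macrophages that recycle iron (2.63), Hmox1, which degrades heme (2.42), and Klf1, a master regulator of erythroid genes (1.53), were higher. Cxcr4, a chemokine receptor, went from 76.8 to 10.8 (-1.73, 3.31-fold lower), a ratio close to that of Vcam1.

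**Figure D4:**
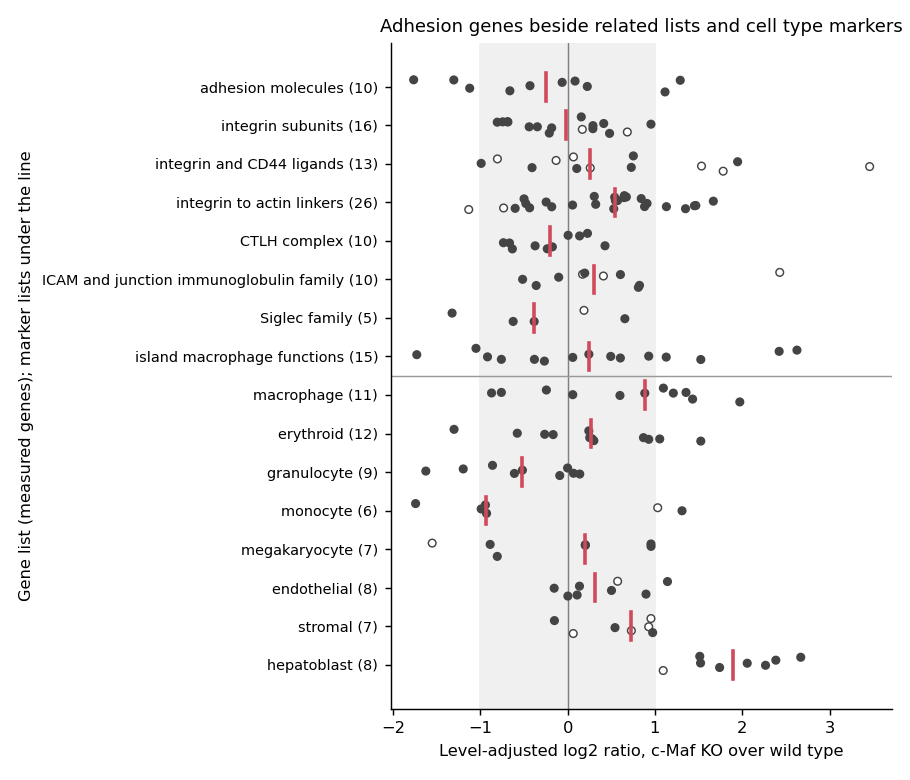
Level-adjusted log2 ratio of each measured gene (points, jittered vertically, open where the gene was under the floor on 1 array) for the adhesion molecules, the related lists and, under the line, the cell type markers, with the median of each list in red and the range within 2-fold shaded. Numbers in brackets are measured genes. The adhesion molecules spread from -1.76 to 1.29, and all 8 measured hepatoblast markers lie to the right of the shaded band.

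Since most members are not restricted to macrophages, the marker lists of other cells stand beside them. Erythroid markers, whose cells carry α4β1 and ICAM4, were bright on both arrays: the 12 measured summed to 8759.5 for wild type against 5602 for knockout, led by Hbb-y (7061 and 4650) and Slc4a1 (831 and 395). Their median log2 ratio was 0.27, with 1 of 12 at least 2-fold lower and 2 higher, beside -0.06 for Itga4 and -0.43 for Icam4. Granulocyte markers, led by S100a9 (4926 and 3812) and S100a8 (4717 and 3317), were 2 of 9 lower and 0 higher. Monocyte markers, cells that carry α4β1 and CD44 too, had a median of -0.93, with 1 of 6 lower and 2 higher, led by Ccr2 (1212 and 190) and F13a1 (916 and 237). The lower one was Ccr2, whose 4 measured probe sets ran from -1.74 to 1.77, with a mean of -0.10. Megakaryocyte markers were led by Pf4 (102 and 52.1), with 1 of 7 lower and 0 higher. In deposited signal 3 of the 12 erythroid and 3 of the 7 megakaryocyte markers were at least 2-fold lower. So were 7 of the 9 granulocyte and 4 of the 6 monocyte markers, and 0 in these lists were higher. Of all genes, 39.8% were lower and 1.19% higher as deposited, and 9.05% and 8.34% after level adjustment. The brightest of the 5 signal bins had a deposited median log2 ratio of -1.33. Stromal markers were led by Pdgfrb (11.6 and 5.80) and Dcn (8.12 and 6.68), endothelial ones by Stab2 (20.3 and 10.9), hepatoblast ones by Afp (209 and 268) and Alb (63.8 and 136), and macrophage ones by Csf1r (625 and 248) and C1qb (124 and 102). The part of these cells in the ratios of the adhesion genes was not tested.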

How the data were processed

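Signals of 2 arrays were analysed. The deposited values are a linear intensity per probe set; the authors' summarisation and scaling are not stated in the labels, and the design text names GeneSpring for their own search. Of 45101 probe sets, 64 are manufacturer's controls; of the rest, 34945 have 1 gene symbol in the platform annotation, 932 several and 9160 none in the table used here. Symbols of 34741 were matched by Entrez identifier to the GRCm38.p6 gene table. Quantile normalization (mean of log2 quantiles), a floor at the 50th percentile of the pooled values, and the log2 ratio (knockout minus wild type in log2) were computed in Python 3.11.15 (numpy 2.4.6, pandas 2.3.3) and tested on simulated data. A gene was measured if its brightest probe set reached the floor on at least 1 array. Calls are at 2-fold, and bright means at least 4 times the deposited floor.

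Named genes were all 10 members with every probe set, Maf, up to 4 bright genes per related list with the largest absolute ratio, and the 2 brightest genes per marker list. Any other gene was named with its value already known. The members, lists and scale were chosen with earlier results of these data known. Alternatives covered scaling, floor, threshold, brightness and choice of probe set. RefSeq promoter windows matched 7 of the 10 members, and the GATA and CACCC motifs were added after the data were seen. The number of arrays limits the precision.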

Additional observations from a re-analysis of the deposited data

How the results depend on the processing

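The 3 adhesion genes at least 2-fold lower became 6 as deposited, and 1 with means over probe sets or at 3-fold. The 2 higher became 0 as deposited or at 3-fold, and 1 with equal medians, centred ratios, the floor at the 65th percentile, the floor as pseudocount, means over probe sets, probe sets without a suffix, or bright genes only. Over probe sets, the 3 lower became 10 as deposited, 5 with equal medians, 6 with the floor at the 25th percentile, 7 at 1.5-fold and 1 at 3-fold. The 5 higher became 1 as deposited, at 3-fold or with bright probe sets only, 2 with equal medians or the floor at the 65th percentile, 8 with centred ratios, 11 with the floor at the 25th percentile and 10 at 1.5-fold. As deposited, the median log2 ratio was -1.26 over genes and -0.67 over probe sets, against -0.25 and 0.23. Of 95 measured genes in the related lists, 4 lower and 14 higher became 36 and 7 as deposited, beside 39.8% and 1.19% of all genes. With equal medians 10 of these were lower, beside 16.3% of all genes. Of the genes at least 2-fold lower or higher, the direction turned for Itgb1 (-0.046) and Rac2 (-0.043) as deposited and for Itgav with means over probe sets (0.062). Of the 5 adhesion genes within 2-fold it turned for 4, namely Cd44 (0.18) and Itga4 (0.036) with those means, and Maea (-0.86) and Palld (-0.71) as deposited, both also with equal medians. It turned under at least 1 setting for 14 of the 24 other named genes within 2-fold. The shares over all features moved with the settings. With equal medians 16.3% of all genes were lower and 4.74% higher, with centred ratios 8.22% and 13.9%, with the floor at the 25th percentile 17.7% each, with means over probe sets 5.14% and 6.59%, at 1.5-fold 21.0% and 21.2%, and at 3-fold 2.15% and 1.59%. Over all probe sets these were 14.6% and 4.92%, 6.92% and 15.2%, and 20.4% and 20.1% for the first 3 of these settings, 20.8% and 21.0% at 1.5-fold, and 2.25% and 1.52% at 3-fold. The cause of these differences was not tested beyond the construction of each setting. Signals near the floor limit Palld, Siglec1 and the knockout value of Vcam1. No paired analysis was possible because each genotype has 1 array, and no array could be left out.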

Other observations

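The log2 ratios of the probe sets of single CTLH genes ran from -1.24 to 1.98 for Wdr26, from -0.82 to 0.32 for Gid4 and from -0.27 to -0.17 for Ranbp10. Icam1, a relative of Icam4, read 14.0 against 6.94 (log2 ratio -0.10), while Icam2 was under the floor in wild type alone.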
